A study of Sus scrofa with 4 samples.

Results

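The genes APOA1, APOA2, APOC3, APOE and RBP4, whose secreted products carry lipid or retinol, were followed in porcine (Sus scrofa) blastocysts. They were read by 7 of the 43794 probes of a two-colour array, 1 probe each for APOA1, APOA2, APOC3 and RBP4 and 3 for APOE. The probes were taken by gene symbol from the platform's annotation, so every probe with 1 of the 5 symbols is included. The genes themselves were chosen by measured values of these arrays, namely the ratios of coculture over control of APOA1 and APOE, the unequal ratios of the APOE probes and the unequal ratios of arrays with opposite dyes. Those ratios are therefore given as a description, and where counts from a fit over all probes are given, nothing about these genes is read from them.

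Each of the 4 arrays compared 2 pools of in vitro blastocysts. One came from cumulus-oocyte complexes, that is oocytes with their surrounding cumulus cells, that had been matured alone (control). The other came from complexes matured together with porcine luteal cells, which in the ovary form the corpus luteum and secrete progesterone (coculture). Coculture RNA carried the dye Cy5 and control RNA Cy3 on replicates 1 and 2, and the dyes were exchanged on replicates 3 and 4. Pools held 10 blastocysts, from days 7 and 8; the labels do not say which pool belonged to which day, so replicates may differ by more than the dye. Both conditions share the amplification of the RNA and its labelling, and whole blastocysts were used, so that outer trophectoderm, inner cell mass and hypoblast were measured together. Nothing in the labels says that the replicates came from separate cultures, and p-values then measure only the spread between these pools.

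Apolipoproteins are the protein part of lipoprotein particles, which move cholesterol, triglyceride and fat-soluble vitamins between cells. In adult mammals most are made by liver and intestine; before these organs exist, the visceral endoderm and yolk sac, which derive from the hypoblast, make and secrete them together with retinol-binding protein. In the mouse, transcripts of this group serve as markers of primitive and visceral endoderm. In the pig genome APOA1 and APOC3 are next to each other, with APOA4 and APOA5 beyond APOC3, and APOE lies between TOMM40 and APOC4, by the order of protein-coding genes in RefSeq's annotation of assembly Sscrofa11.1. APOA2 and RBP4 lie on other chromosomes.

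A probe was counted as above the detection limit in a channel if its median pixel intensity was more than 2 SD above the average of the array's 153 negative controls. That limit was 702 to 935 in Cy3 and 699 to 978 in Cy5. Of all probes, 29.9% to 34.9% exceeded it in Cy3 and 23.5% to 29.3% in Cy5, and the Cy3 share was the higher on each of the 4 arrays, whichever condition it held. Across the 15631 probes tested, the log2 ratios of coculture over control correlated at 0.20 between replicates 1 and 2 and at 0.17 between replicates 3 and 4, but at -0.19 to -0.028 between arrays of opposite dyes. The arrays fall apart by dye orientation, and orientation cannot be told apart from any other difference between replicates 1 and 2 and replicates 3 and 4. Ratios are therefore given for each array, and with the mean of each orientation beside the mean of all 4.

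Whether the blastocysts held hypoblast was checked on marker lists. Of all 43794 probes, 7179 were above the limit in all 8 channels, while the lists count each gene by its brightest probe. Of 27 hypoblast genes with a named probe, 9 were above the limit in all 8 channels and 9 in none. Above it in all 8 were GATA6, a transcription factor of that lineage, the matrix gene COL4A1 and the endocytic adaptor DAB2, among others. FOXA2, PDGFRA and HHEX exceeded it in none, and GATA4 and SOX17 had no probe named here. The list of secreted products of visceral endoderm had 26 genes with a named probe, of which 15 exceeded the limit in no channel. Among these 15 were AFP, ALB, TF and the fibrinogen genes FGA, FGB and FGG. TTR had no named probe. Above the limit in all 8 channels were 4 of the 26, FETUB, IGFBP1, SERPINF1 and FTH1. FTH1, a chain of the iron store ferritin, is not particular to endoderm. Of 14 hepatocyte genes with a named probe 0 exceeded the limit in all 8 channels, and of 20 genes of granulosa, cumulus and luteal cells 1 did. Trophectoderm had 8 of 20 named genes above the limit in all 8 channels and inner cell mass 5 of 14. Part of the endoderm markers was thus above the limit, as for the other lineages, and part was not. These counts do not set endoderm apart from the other lineages. The cell type that gave the apolipoprotein signal cannot be told from whole blastocysts.

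APOA1, which forms the backbone of high-density lipoprotein and is the activator of the enzyme that esterifies its cholesterol, had the widest swing between arrays. Its probe (EMPV1_21598) read 4984, 6995, 2366 and 3562 in control on replicates 1 to 4, against 1236, 1406, 2164 and 4470 in coculture. All 8 values exceeded the limit. Control was far above coculture on replicates 1 and 2, the conditions were close on replicate 3, and coculture was above control on replicate 4, so the conditions overlap.

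After normalization, the log2 ratios of APOA1 for coculture over control were -2.15, -2.54, -0.029 and 0.39. These are levels 4.45-fold and 5.81-fold lower in coculture on replicates 1 and 2, and 1.31-fold higher on replicate 4. The mean was -1.08 ± 1.48 (SD, n = 4). It was -2.35 where coculture carried Cy5 and 0.18 where it carried Cy3. The SD exceeds the mean, and the mean rests on replicates 1 and 2. In whole blastocysts, fewer cells that make a transcript and less transcript per cell cannot be told apart, for this gene and the others.

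Read by dye, APOA1 was dimmer in Cy5 than in Cy3 on replicates 1, 2 and 4, with a dye term of -1.26, the average log2 ratio of Cy5 over Cy3 over both orientations. Of the probes tested, 0.0192% had a lower one. Disagreement between the dye orientations was among the reasons for choosing the genes, so this rank is a description. Within Cy5, the raw values of 1236 and 1406 in coculture lay below the 2366 and 3562 in control. Within Cy3, 2164 and 4470 in coculture lay below 4984 and 6995 in control. These within-dye comparisons set different arrays side by side. After normalization between arrays the Cy5 values stayed apart, at 9.85 and 9.90 in coculture and 11.01 and 11.82 in control on the log2 scale, while the Cy3 values overlapped, at 10.98 and 12.20 in coculture and 12.01 and 12.44 in control.

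APOA2, the second protein of high-density lipoprotein, did not share this pattern. Its probe (EMPV1_04513) read 5351, 6205, 3525 and 4052 in control and 7708, 4429, 4154 and 6202 in coculture, all above the limit. Coculture was the brighter on replicates 1, 3 and 4 and the dimmer on replicate 2. The log2 ratios were 0.64, -0.36, 0.36 and 0.69, with a mean of 0.33 ± 0.48 (SD, n = 4), smaller than the spread. The mean was 0.14 with coculture in Cy5 and 0.53 with coculture in Cy3, and the fitted value dropped to 0.084 without replicate 1 and rose to 0.58 without replicate 2.

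APOC3, which inhibits lipoprotein lipase and so slows the clearance of triglyceride-rich particles, resembled its chromosomal neighbour APOA1. Its probe (EMPV1_19342) read 2011, 2414, 2022 and 1421 in control, each above the limit, and 715, 938, 1251 and 2123 in coculture, of which the 938 of replicate 2 was below it. Control was the brighter on replicates 1, 2 and 3 and coculture on replicate 4.

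The log2 ratios of APOC3 were -1.78, -1.65, -0.73 and 0.68. The mean of -0.87 ± 1.13 (SD, n = 4) again lay within the spread. It was -1.72 with coculture in Cy5 and -0.026 with coculture in Cy3, and the fitted value was -0.52 without replicate 3. The dye term was -0.84, lower than that of all but 0.345% of the probes tested, a description for the same reason as in APOA1. Over the 8 normalized channel values, APOC3 and APOA1 had a Pearson correlation of 0.89. Both probes shared arrays, dyes and loess curves in those 8 values, so the correlation is a description and has no p.

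**Figure D1:**
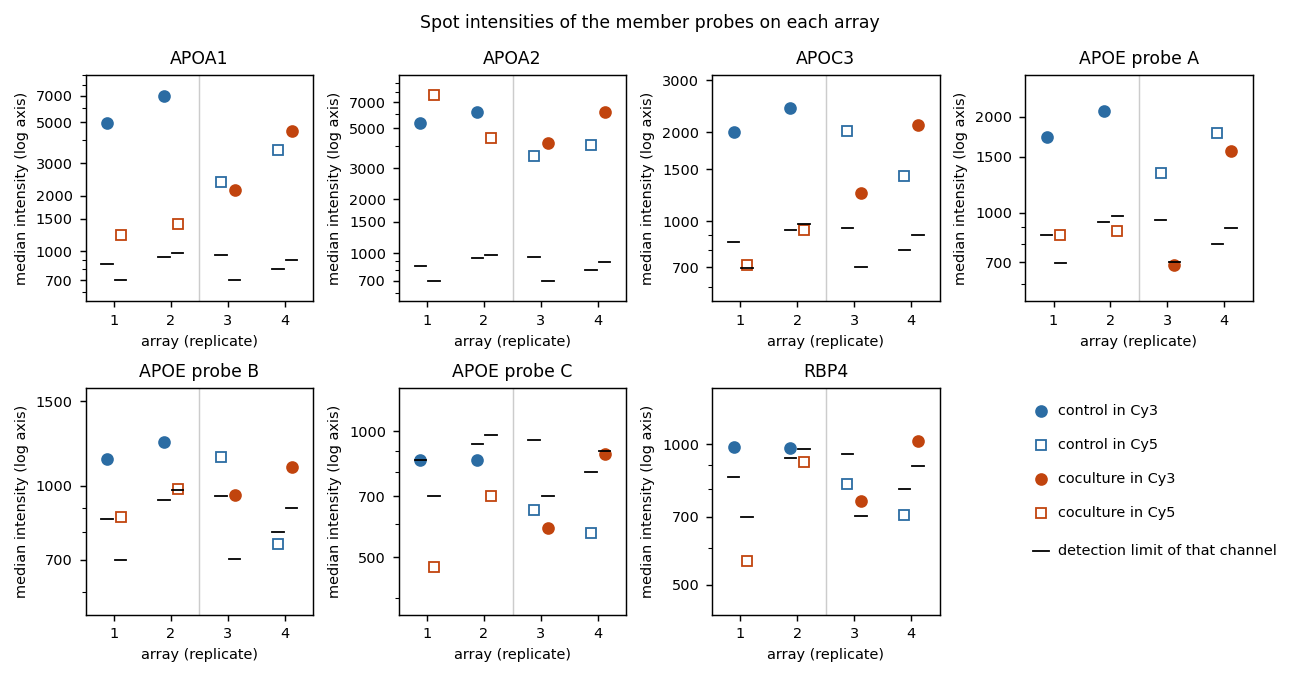
Median spot intensity (log axis, scanner units) of each member probe on replicates 1 to 4, with colour for the condition, filled circles for Cy3, open squares for Cy5 and short lines for the detection limit of each channel. APOA1 and APOA2 lie above the limit in all 8 channels, while RBP4 exceeds it in Cy3 and not in Cy5.

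APOE, the ligand through which lipoprotein remnants bind their receptors on cells, was read by 3 probes that did not give 1 answer. The first (EMPV1_43584, probe A) read 1728, 2082, 1328 and 1778 in control, all above the limit. In coculture it read 853, 877, 688 and 1563, with the values of replicates 2 and 3 below the limit. Control was the brighter on every array, in either dye.

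Log2 ratios of probe A were -1.06, -1.55, -1.12 and -0.40. Those of replicates 2 and 3 set control against a coculture signal that was not above the limit, so their sizes are uncertain. The mean was -1.03 ± 0.47 (SD, n = 4), larger than the spread. It was -1.30 with coculture in Cy5 and -0.76 with coculture in Cy3. The normalized signal was 9.25 ± 0.69 in coculture and 10.28 ± 0.38 in control on the log2 scale (SD, n = 4). The highest coculture value, 10.24 on replicate 4, exceeded the lowest control value, 9.77 on replicate 3, so that the conditions overlap across arrays though not on any 1 array.

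Probe B of APOE (EMPV1_35734) gave no such difference. It read 1136, 1232, 1149 and 755 in control and 858, 984, 955 and 1092 in coculture, with 7 of the 8 values above the limit. The log2 ratios were -0.10, -0.30, -0.11 and 0.50, with a mean of -0.0017 ± 0.35 (SD, n = 4). Its means were -0.20 with coculture in Cy5 and 0.20 with coculture in Cy3.

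Probe C of APOE (EMPV1_22457), the 1 probe of the 3 that the annotation ties to a RefSeq transcript, was at the limit. It read 854, 855, 648 and 570 in control and 474, 702, 587 and 885 in coculture. The 854 of replicate 1 was the only value above the limit, and the probe was not tested. Its log2 ratios of -0.99, -0.23, 0.38 and 0.69 compare signals that were not well above background, and they changed sign with the dye orientation.

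The 8 normalized values of probes A and B correlated at -0.099, those of A and C at 0.46 and those of B and C at 0.13. Probe A went with APOA1 at 0.82 and with APOC3 at 0.69, and probe C with RBP4 at 0.89. Values of probe C were above the limit in 1 of 8 channels, so its correlations rest on signal near background. No probe sequences were used here, and which stretch of the transcript each probe reads, or whether a probe reads another transcript, was not tested.

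RBP4, which carries retinol from its sites of storage to cells, was close to the limit. Its probe (EMPV1_30434) read 983, 982, 821 and 704 in control and 562, 917, 755 and 1014 in coculture. Above the limit were the control values of replicates 1 and 2 and the coculture values of replicates 3 and 4, that is all 4 Cy3 values and 0 of the 4 Cy5 values. It passed the filter for testing through the Cy3 channels alone.

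The log2 ratios of RBP4 were -0.86, -0.043, 0.35 and 0.65, with a mean of 0.023 ± 0.66 (SD, n = 4). They lay below 0 on both arrays with coculture in Cy5 (mean -0.45) and above 0 on both with coculture in Cy3 (mean 0.50). The dye term of -0.48 was lower than that of all but 2.96% of the probes tested, which is again a description, given how the genes were chosen. Normalized signals were 8.84 ± 0.40 in coculture and 8.81 ± 0.26 in control on the log2 scale (SD, n = 4).

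**Figure D2:**
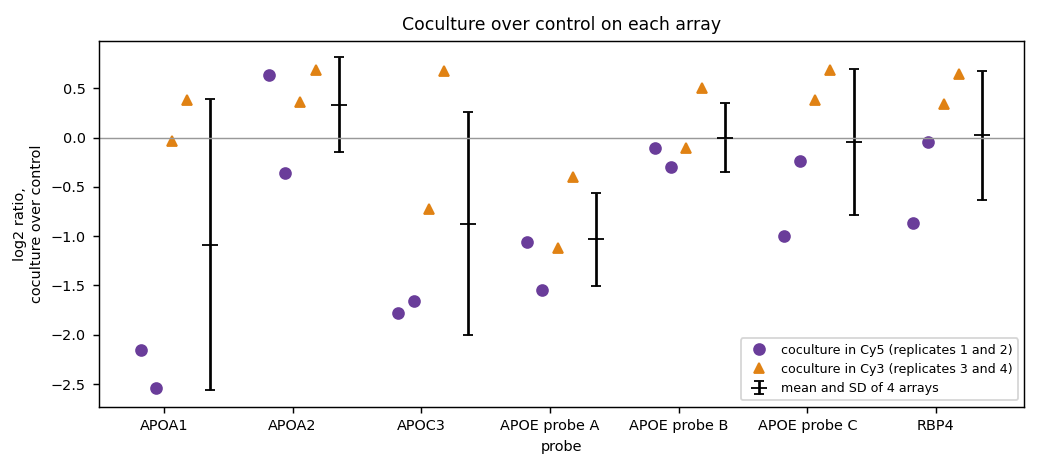
Log2 ratio of coculture over control on each array (points) and mean with SD of the 4 arrays (bars) for the 7 member probes, with circles for arrays with coculture in Cy5 and triangles for coculture in Cy3. APOE probe A is below 0 on all 4 arrays; APOA1 and APOC3 are lowest on replicates 1 and 2 and above 0 on replicate 4.

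For each of the 7 probes, the mean ratio was lower with coculture in Cy5 than with coculture in Cy3, which is the same as a dye term below 0. The difference between the orientations ran from -2.52 for APOA1 to -0.39 for APOA2 on the log2 scale. The ratio of Cy5 over Cy3 was below 0 on all 4 arrays for 2 probes, RBP4 and probe C of APOE. Over all probes tested the median dye term was 0.0051. Since the genes were chosen partly for this disagreement, its count is a description.

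**Figure D3:**
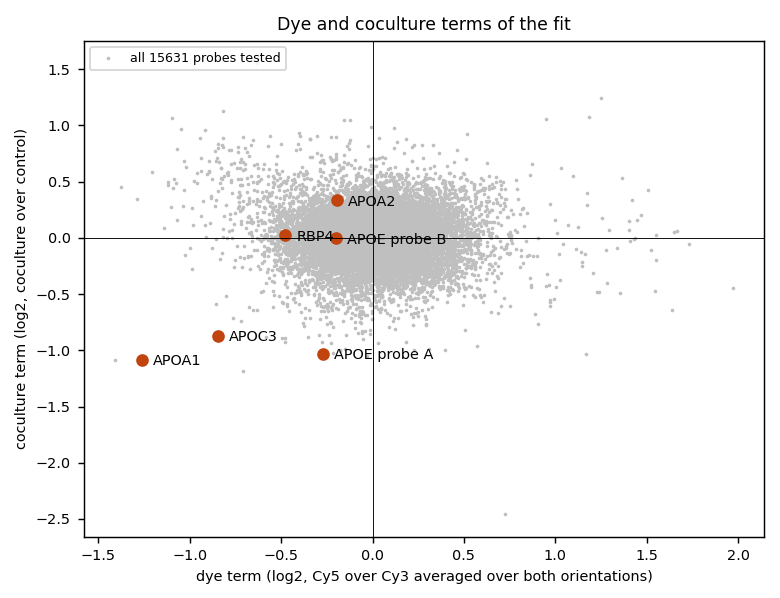
Dye term against coculture term (both log2) for all probes tested (grey) and the 6 member probes tested (red). APOA1 at -1.26 and -1.08 and APOC3 at -0.84 and -0.87 are low on both axes, while APOE probe A is low on the coculture axis alone.

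Of the 6 member probes tested, limma called 0 after adjustment (threshold 0.05), as for all probes, of which 0 of 15631 (0%) were called. By the unadjusted p, 3 of the 6 were lower in coculture at that threshold (APOA1, APOC3 and probe A of APOE), against 3.7% of all probes tested, and 0 were higher, against 4.15%. A ratio of 1 sign on all 4 arrays was seen in 1 of the 6, probe A of APOE, against 13.2%. Opposite signs in the 2 orientations were seen in 1 of the 6, RBP4, against 20.2%. Normalized values did not overlap between the conditions in 0 of the 6, against 1.52%. Coculture lay below control within each dye in 1 of the 6, probe A of APOE, against 1.89%. These contrasts chose the genes, so nothing is read from the counts. The unadjusted p also leaves out the difference between the orientations, which was -2.52 for APOA1 and -1.69 for APOC3.

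The probes most like each member over the 8 normalized channel values were sought among 4104 tested probes with a symbol and an SD of at least 0.3. APOA1 went with CRELD1 (Pearson correlation 0.94), TMEM183A (0.93) and FGFR4 (0.91). FGFR4, a fibroblast growth factor receptor, had log2 ratios of -0.92, -1.18, -0.12 and 0.18, the order of APOA1 at a smaller size. APOC3 went with DNAJC4 (0.91), PNPLA2 (0.90), the lipase that opens stored triglyceride, and APOA1.

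Probe A of APOE went with ADAM8 (0.93), the amino acid transporter subunit SLC3A1 (0.90) and the peroxidase GPX1 (0.90). ADAM8 had ratios of -0.56, -0.77, -1.05 and -0.28, below 0 on every array. APOA2 went with the primase subunit PRIM1 (0.91), SEPHS2 (0.84) and PAQR5 (0.81), and RBP4 with the amino acid transporter SLC38A1 (0.98), TMEM80 (0.91) and CDT1 (0.91). SLC38A1 had ratios of -1.13, -0.049, 0.35 and 0.76, nearly those of RBP4. In Cy5, RBP4 exceeded the limit on 0 arrays, so its correlations rest partly on signal near background. These correlations were searched for among many probes and have no p.

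Genes of the same pathways were described from lists that left out the 5 genes. Over 12 lists, 98 different genes were tested, and limma called 0 after adjustment. By the unadjusted p, 6 were higher and 6 lower in coculture, beside 4.15% and 3.7% of all probes tested. The median ratio over all probes tested was 0.0017. Each gene named below had a limma adjusted p of at least 0.629 and did not pass.

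Of 23 other apolipoproteins and related genes, 15 had a named probe and 4 were tested. APOA4, APOA5, APOC2, APOC4 and APOF, which share particles with the members, exceeded the limit in no channel, and APOB and APOC1 had no named probe. Of the genes tested, APOO and APOOL, named as apolipoproteins, encode subunits of the mitochondrial inner membrane complex MICOS. APOOL had a log2 ratio of 0.41 (95% interval 0.071 to 0.74) and lay above 0 on all 4 arrays. APOO stood at 0.48 (0.051 to 0.91). CLU, the secreted chaperone clusterin, which is also found on high-density lipoprotein, stood at 0.62 (-0.49 to 1.74), with array values from -0.82 to 2.39. PON2 stood at -0.17.

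Lipoprotein assembly, remodelling and lipolysis had 10 of 16 named genes tested, 8 of them below 0, with a median ratio of -0.11. LMF2, a relative of the factor that matures lipases, stood at -0.94 (95% interval -1.41 to -0.46) and below 0 on all 4 arrays, while its other probe had the opposite sign. LMF1, that lipase maturation factor, stood at -0.31 (-0.65 to 0.028). It exceeded the limit on 0 coculture and 2 control arrays, and its mean signal was 1.24-fold higher in control, which equals the fitted fold and is no minimum. SEC23A, of the coat of vesicles that leave the endoplasmic reticulum, stood at -0.25. MTTP, which loads lipid onto APOB, exceeded the limit in no channel.

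Receptors and transporters that take up or load lipoproteins had 10 of 15 named genes tested, 6 below 0, with a median of -0.14. LRPAP1, a chaperone of lipoprotein receptors to which APOE binds, stood at -0.86 (95% interval -1.495 to -0.23), with array values of -0.16, -1.86, -0.30 and -1.13. LRP5, a WNT coreceptor, stood at -0.41 (-0.74 to -0.088). It exceeded the limit on 0 coculture and 2 control arrays, with a mean signal 1.33-fold higher in control that equals the fitted fold. LSR, a receptor for triglyceride-rich particles, stood at 0.24 (-0.14 to 0.62). LRP1 and LRP2 had no named probe.

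The retinoid pathway, in which RBP4 delivers the substrate, had 10 of 23 named genes tested, 5 on either side of 0, and a median of 0.00072. The RBP4 receptor STRA6 exceeded the limit in no channel. FABP5, which carries fatty acids and retinoic acid, stood at 0.99 (95% interval -0.044 to 2.02), with 2.34 on replicate 2 and 2.03 on replicate 3, while replicate 1 gave -0.38 and replicate 4 gave -0.032. DHRS9, a retinol-oxidising enzyme, stood at -0.35 and RBP2, a cytosolic retinol carrier, at -0.56, with array values from -1.52 to 0.41.

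Transcription regulators known for apolipoprotein genes had 7 of 23 named genes tested, with a median of 0.017. FOXA1, FOXA2, FOXA3, PPARA, CEBPA and NR5A2 exceeded the limit in no channel. NR2F6, an orphan nuclear receptor, stood at -0.44 (95% interval -0.77 to -0.12) and below 0 on all 4 arrays. SP1 stood at 0.40 (0.045 to 0.76) and above 0 on all 4, and RORA, a nuclear receptor, at 0.35.

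**Figure D4:**
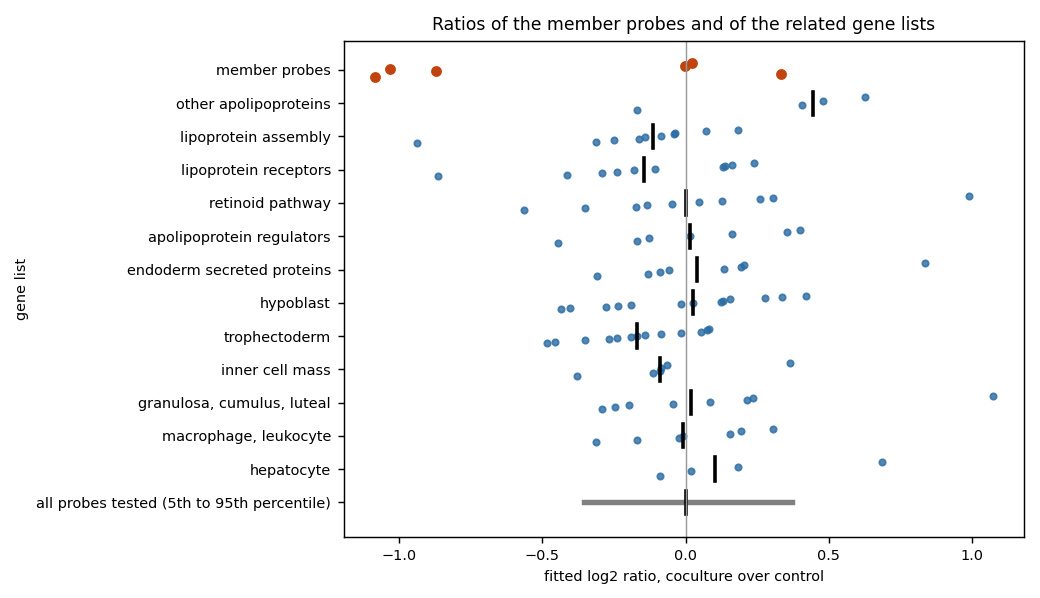
Fitted log2 ratio of coculture over control for the 6 member probes tested, the tested genes of 12 lists (points, with the list median as a bar) and all probes tested (grey bar, 5th to 95th percentile, -0.35 to 0.37). APOA1, APOC3 and APOE probe A lie among the lowest values shown; the list medians lie from -0.17 to 0.44.

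Secreted products of visceral endoderm other than apolipoproteins had 8 of 26 named genes tested, 4 on either side of 0, with a median of 0.039. FTH1, which is not particular to endoderm, is among the 8. FETUB, a secreted protease inhibitor, stood at 0.83 (95% interval 0.44 to 1.23), the opposite side from APOA1, with array values of -0.013, 0.68, 1.53 and 1.14. F2, prothrombin, stood at -0.31 and IGFBP1 at 0.21. The hypoblast list had 13 genes tested, 7 above and 6 below 0, and a median of 0.025. Its medians by array were -0.22, -0.31, 0.30 and 0.22, below 0 with coculture in Cy5 and above 0 with coculture in Cy3. The secreted products had the same signs, at -0.041, -0.066, 0.20 and 0.18. So did the hepatocyte genes, at -0.15, -0.054, 0.063 and 0.37, over 4 genes of which HPX is also among the secreted products. The other lists did not, though lipoprotein assembly, at -0.37, -0.29, -0.0063 and 0.027, differed only on replicate 3. The median of all probes tested stayed between -0.010 and 0.0074, near 0 as the normalization of each array sets it. In the hypoblast list, FST, which binds activin, stood at -0.40 and LAMB1, a laminin chain, at -0.43. NID2, a basement membrane protein, stood at 0.42 (array values from -0.27 to 1.45). Of its 5 probes, 2 had the opposite sign, counting only probes that were tested. Sums of normalized signals, here and below, cover all named genes of a list, also those not above the limit. For hypoblast genes they were 39188 to 59945 in coculture and 42416 to 54621 in control, which overlap.

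Other cell types gave these values beside the members. Trophectoderm genes had a median of -0.17 with 10 of 13 below 0. GATA2 stood at -0.48 with conditions that do not overlap, TEAD4 at -0.45 and KRT19 at -0.35. Of the 4 probes of TEAD4, 1 had the opposite sign, again counting only probes that were tested. The summed signal of the trophectoderm genes was 191837 to 236712 in coculture and 194119 to 228051 in control. On the log2 scale, KRT18 lay at 15.93 to 16.02 in coculture and 15.78 to 15.96 in control. KRT8 lay at 15.93 to 16.04 in coculture and 15.79 to 15.96 in control. Both keratins are near the highest value the scanner can give and make up much of the sum. The sum therefore says little about the other trophectoderm genes, and saturation of these spots was not tested. Inner cell mass genes had a median of -0.087 over 6 genes, with POU5F1, the pluripotency factor OCT4, at -0.38 and LIN28A at -0.11. SOX15 stood at 0.36, with 2 coculture and 0 control arrays above the limit. Its array values of -0.24, 0.064, 1.56 and 0.084 show that this mean rests on replicate 3. With control raised to the lowest signal above the limit on some arrays, mean signal was 1.25-fold higher in coculture. That fold rests on replicate 3 as well and is no minimum.

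Granulosa, cumulus and luteal genes had a median of 0.020 over 8 genes. RGS2, a regulator of G protein signalling, stood at 1.07 (95% interval 0.12 to 2.03) with array values from -1.07 to 3.49, AMH at 0.21 and NR5A1 at -0.25. The summed signal of the 20 named genes was 8462 to 18234 in coculture and 7212 to 10615 in control. RGS2 alone reached 13.40 in coculture and at most 11.28 in control on the log2 scale. Of the 20 genes, 7 exceeded the limit in no channel, among them FSHR, PTX3 and INSL3, so the sums do not measure these cells. Macrophages also make APOE. Of 16 named genes of macrophages and other leukocytes 2 exceeded the limit in all 8 channels and PTPRC, CSF1R and CD14 in none, with summed signals of 11964 to 16705 in coculture and 12067 to 15227 in control; AIF1 stood at 0.31, C1QA at -0.31 and CD79A, a B cell gene, at 0.19. Of the 4 hepatocyte genes tested, CYP2E1 stood at 0.69, with array values of -0.35, -0.068, 2.35 and 0.81, CPS1 at 0.18 and HPX at -0.088. The summed hepatocyte signal was 4473 to 6552 in coculture and 4566 to 5238 in control. Of the 14 genes in that sum, 9 exceeded the limit in no channel, so much of it is signal near background. The part of any of these cell types in the ratios of the members was not tested.

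Probe A of APOE stood between -1.30 and -0.73 in all 14 alternatives, with -0.73 without background correction and -0.79 in the authors' deposited table. The fit without a dye term and the separate-channel fit are among the 14 and give the same ratio by construction, since the dyes are balanced. APOC3 was below 0 in all 14 but reached -0.026 on replicates 3 and 4 alone. APOA2 was above 0 in all 14 but only 0.084 without replicate 1. APOA1 was below 0 in 13 of 14, the exception being replicates 3 and 4 alone, at 0.18. RBP4 and probes B and C of APOE fell on both sides of 0.

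In the authors' deposited table, turned to coculture over control, APOA1 had log2 ratios of -1.85, -2.31, -0.11 and 0.41 on replicates 1 to 4. Probe A of APOE had -0.76, -1.28, -0.80 and -0.33 in the authors' deposited table. The same order of the arrays for APOA1, and the same sign on all 4 for probe A, were thus in the table the authors made.

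**Figure D5:**
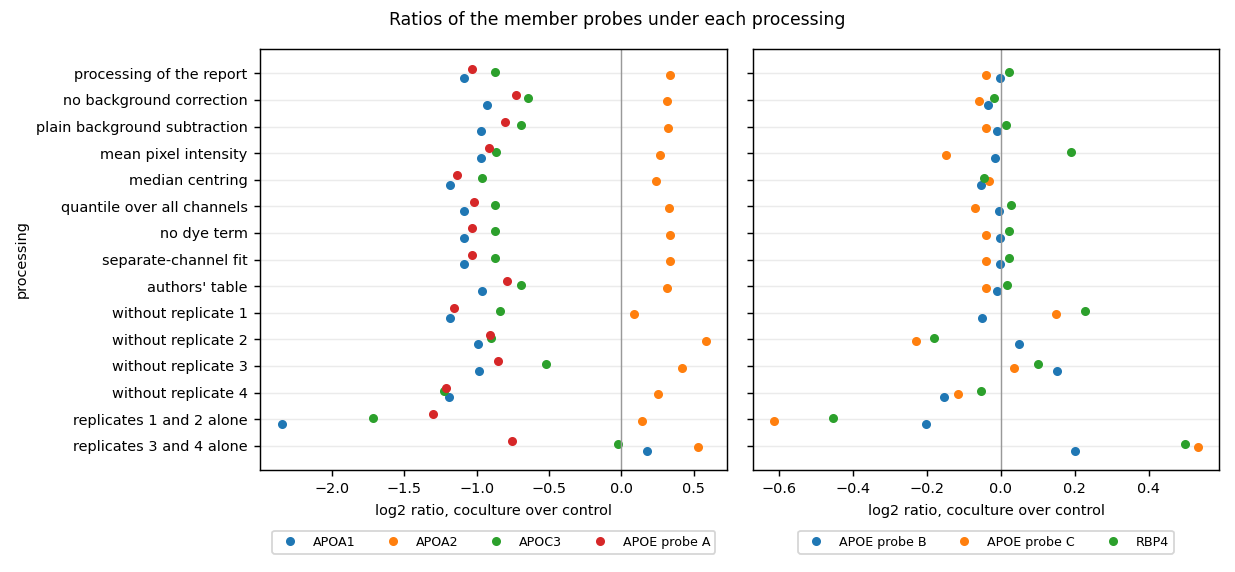
Log2 ratio of coculture over control of the 7 member probes under the processing of the report and 14 alternatives (vertical axis). APOA1 moves from -2.35 on replicates 1 and 2 alone to 0.18 on replicates 3 and 4 alone, and APOE probe A stays between -1.30 and -0.73.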

How the data were processed

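RNA of whole blastocysts was measured on 4 two-colour arrays. Per the labels' protocols, RNA was amplified and labelled chemically with Cy3 or Cy5. The deposited scanner tables give, per the file headers, the median and mean pixel intensity of each spot and its local background in each dye, on a linear scale. A deposited value table holds log2 values made by the authors with limma per the submitters' processing notes. It correlated at 0.941 to 0.961 with log2 ratios of Cy5 over Cy3 after background subtraction and loess, and at 0.968 to 0.979 with quantile normalization added. Its medians were -0.0133, -0.013, -0.000395 and -0.0167; its direction and scale were settled so, its exact centring stays unknown.

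Median intensities were corrected with normexp (offset 50) and normalized by loess, leaving control spots out of the curve, with limma 3.58.1 under R 4.3.3; 74 to 150 spots per array marked as left out had no value, and no member spot was among them. The fit (lmFit, eBayes) had a dye term and a coculture term, with 2 residual and 6.04 prior degrees of freedom. Tested probes were above the limit for 1 condition on 2 or more arrays and had values on at least 3. P-values were adjusted by Benjamini-Hochberg over all 15631 at 0.05; the 95% interval reached a median of 0.363 to either side. Levels per condition were taken after Aquantile normalization. Of 43794 probes 18121 had 1 symbol and 0 several, updated through RefSeq.

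The members, the lists and the tests were chosen with earlier results of these data known. Named were all member probes, the 3 tested genes of smallest unadjusted p per list with those under 0.05 in 3 of the lists, the 3 probes most like each member, and markers used to check cell types. The brightest probe stood for a gene that had several. Alternatives covered background, pixel summary, normalization, filter, model, dye term, single replicates and orientations.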

Additional observations from a re-analysis of the deposited data

Results flagged for a closer look

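For 2 of the 7 probes both arrays with coculture in Cy5 went one way and both arrays with coculture in Cy3 the other. Of all probes tested 20.2% did so, and probe C of APOE was not tested. The ratio of RBP4 on replicate 2 was -0.043, near 0, and its Cy5 signal exceeded the limit on no array. The mean log2 ratio of RBP4 with coculture in Cy5 was lower by a difference of -0.952 than with coculture in Cy3. For probe C of APOE the difference was -1.15, in signals that were not well above background. Neither difference was tested. No array stood apart from the other 3 by Dixon's criterion in the ratios or condition levels of the 7 probes.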

How the results depend on the processing

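At an adjusted p under 0.05 limma called 0 probes in 15 of 16 alternatives and 2 with replicates 1 and 2 alone. The count at an unadjusted p under 0.05, 1226 of 15631 probes, was 813 without the dye term, 1898 in the separate-channel fit, 2643 of 43725 without the filter and 641 of 7179 with the strictest filter, where fewer or more probes were tested. It ran from 609 without replicate 2 to 1503 without replicate 4 when 1 replicate was left out. The cause of the other changes was not tested. The mean over the 3 probes of APOE was -0.358, against -1.03 for probe A. Without 1 replicate in turn, APOA1 lay between -1.19 and -0.98 and probe A of APOE between -1.21 and -0.853. Those fits average orientations, so they keep the weight of replicates 1 and 2 in APOA1. From replicates 1 and 2 alone to replicates 3 and 4 alone, APOC3 moved from -1.72 to -0.026 and RBP4 from -0.453 to 0.499. With a limit at the mean plus 3 SD, RBP4 exceeded it in 2 channels and probe C of APOE in 0. Signals of RBP4 and of probes B and C of APOE lay near the limit, which bounds what their ratios can show.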

Other observations

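The protein-coding genes that lie within 4 places of the members in RefSeq's order were looked at as well, a choice made after the data were seen. Of 32 such genes 25 had a named probe and 14 were tested; limma called 0 at an adjusted p under 0.05. Their ratios ran from -0.39 for MYOF, a membrane repair protein near RBP4, to 0.55 for TAGLN, and some are given here. Beside APOA1 and APOC3, SIK3, a salt-inducible kinase, stood at a log2 ratio of 0.12, SIDT2, a lysosomal membrane protein, at -0.24 and TAGLN, an actin-binding protein, at 0.55, while APOC3 itself had -0.87 and APOA1 -1.08. Beside APOE, CBLC and CLPTM1 stood at -0.16 each. CYP26A1, which breaks down retinoic acid and lies near RBP4, stood at 0.30, from 1.12 on replicate 3 and values of 0.043, -0.14 and 0.19 on the others. MYOF had -0.41, 0.060, -0.49 and -0.71.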
